A study of Mus musculus with 8 samples.

Results

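The untreated arrays of the 7438 line, 2 of the 8 arrays in the series, were read here on their own as the baseline state of hormone-starved mouse mammary cells. They were chosen by their titles, every level is read on these arrays alone, and no difference between conditions is given. The 6 hormone-treated arrays entered only the choice of the probe set that stands for a gene. With that choice made on the untreated arrays, 10988 genes in place of 10983 passed the floor described below, 32 in place of 31 cytokine or TGF-beta family receptors, and 17 in place of 16 complexes, and the counts of the other lists and of pairs were unchanged. The 7438 line carries a green fluorescent glucocorticoid receptor (GFP-GR) and a cherry fluorescent estrogen receptor (Cherry-ER), both behind a tetracycline-regulated promoter that is shut off in maintenance culture by 5 ug/ml tetracycline. Before RNA was taken, the cells were plated 48 h ahead in medium with 10% charcoal-dextran serum, which is stripped of steroids, and tetracycline was washed out 24 h before the time of hormone addition to induce both fusion proteins in every group. The other 3 groups, not used here, received 100 nM dexamethasone, 100 nM estradiol or both for 2 h. The labels do not say whether the line is a single clone or whether the 2 arrays came from separate cultures, so the standard deviations (SD) given after ± measure only the spread between these 2 arrays, which may be technical.

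Mammary epithelium has an inner luminal layer, which makes milk and holds the hormone-receptor-positive cells, and an outer basal or myoepithelial layer, which contracts. Epithelial cells are held together by E-cadherin junctions, desmosomes and tight junctions, while mesenchymal cells lack these, carry N-cadherin and vimentin and lay down fibrillar matrix. Steroid receptors are kept ready for ligand by the Hsp90 chaperone cycle and act on genes through coactivators, corepressors and factors that open chromatin beforehand, such as AP-1.

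Signals are log2 values made by robust multi-array averaging (RMA), for 18194 genes, each read by its brightest probe set. A probe set has its own affinity, so signals of different genes were not ranked as amounts of RNA. Instead each gene was set against a floor, the 95th percentile of 73 sensory receptor genes (olfactory, vomeronasal, trace amine and bitter taste receptors) that a mammary cell would not be thought to use. The floor lay at 5.72 on replicate 1 and 5.63 on replicate 2. A gene above it on both arrays is called above the floor, a gene above it on 1 array is called at the floor, and 60.4% of all genes were above it. The floor is lenient: 21 of 72 genes that are restricted to other tissues, such as lens, testis or pituitary, also lay above it. A stricter upper line was therefore taken from these tissue-restricted genes, at their 95th percentile (6.99 and 6.94), and 45.8% of all genes exceeded it on both arrays. The 2656 genes between both lines are called dim. All 18 housekeeping genes measured lay above both lines, 17 of them in a bright band that starts at a mean of 8.91, the upper quartile of all genes. The 2 arrays correlated at 0.998 over all genes, and 15 of the 10983 genes above the floor differed by more than 0.5 between them.

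The mesenchymal list was the brightest of the lineage lists. Of 27 measured mesenchymal genes, 20 were above the floor and 17 above the upper line. These shares were 74.1% and 63.0%, beside 60.4% and 45.8% of all genes. The list median was 8.73, against 6.58 over all genes. Vim, the intermediate filament vimentin, gave 13.95 and 13.98 on the 2 arrays, and all 3 of its probe sets were above the floor. The metastasis-linked calcium-binding gene S100a4 gave 13.63 and 13.71. Cdh2, which encodes N-cadherin, gave 10.82 and 10.69. These genes lay far above both lines on both arrays. The transcription factor genes of epithelial to mesenchymal transition were above the upper line as well. Snai2 gave 9.85 and 9.86, Zeb1 9.42 and 9.33, and Twist1 8.69 and 8.77, while Snai1, at 6.68 ± 0.0589, was dim. Among surface receptors of mesenchymal cells, Pdgfrb gave 11.06 and 11.01 and Axl, read above the floor by 1 of its 2 probe sets, 11.32 and 11.25. Not every fibroblast gene was there. The matrix genes Postn, Dcn and Lum, the fibroblast protease Fap and the cadherin gene Cdh11 were not above the floor, with means from 3.34 to 5.42, and the fibroblast surface gene Thy1, mean 5.71, was at the floor.

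**Figure D1:**
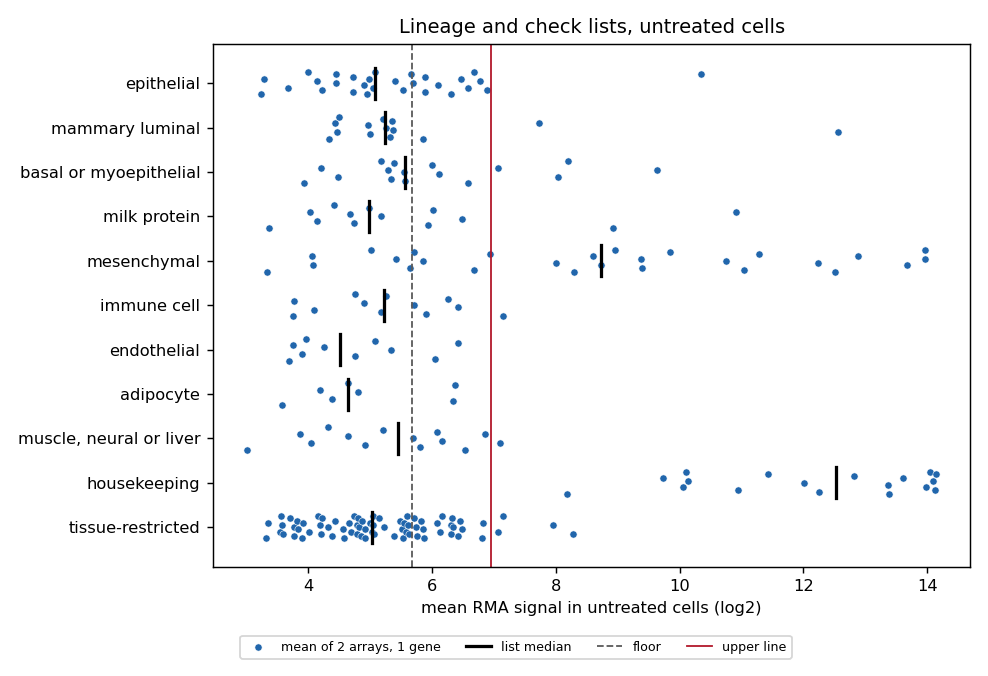
Mean RMA signal (log2, x axis) of every measured gene of the lineage and check lists in untreated cells, 1 point per gene, with the list median as a black bar, the floor as a dashed line and the upper line as a red line. The mesenchymal median, 8.73, lies right of both lines, and the medians of the other lineage lists lie left of the floor.

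Most epithelial genes gave no signal above the floor. Of 29 measured, 18 were not above it, 11 were, and 1 exceeded the upper line. Above the floor and the upper line were thus 37.9% and 3.4%, beside 60.4% and 45.8% of all genes. Cdh1, which encodes E-cadherin, gave 3.27 and 3.22. Krt18, keratin 18, gave 4.43 and 4.48, and Esrp1, the epithelial splicing regulator, 3.68 and 3.67. Both arrays thus placed these defining genes well below the floor. The gene above the upper line was Perp, a desmosomal p53 target, at 10.35 ± 0.0239. Epcam, the epithelial adhesion molecule, gave 6.95 and 6.82 on 1 probe set and a mean of 5.10 on its other probe set, so its probe sets disagreed about the floor. Grhl2, an epithelial transcription factor, was dim at 6.67 ± 0.153 with 3 of 4 probe sets above the floor. Krt8, the partner of keratin 18, was dim at 5.88 ± 0.0785 with 1 of 3.

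Genes of the mammary layers were mixed. Of 14 luminal genes, 3 were above the floor. Cd24a, a surface protein used to sort mammary epithelium, gave 12.55 and 12.57, and Gata3, a luminal transcription factor, 7.77 and 7.67. Foxa1, the factor that opens chromatin for estrogen receptor, gave 4.40 and 4.29, and Elf5, the milk-lineage factor, 4.90 and 5.10, neither above the floor. Of 16 basal or myoepithelial genes, 7 were above the floor and 4 above the upper line. The basal keratin gene Krt14 gave 8.23 and 8.15 on its brightest probe set. Its partner Krt5 was dim at 6.58 ± 0.0193. Itga6, integrin alpha 6, gave 9.58 and 9.70, and Mylk, myosin light chain kinase, 8.14 and 7.93. Trp63, the master factor of basal cells, was not above the floor on any of its 4 probe sets, with a best mean of 5.17 ± 0.0596. Acta2, smooth muscle actin, was dim at 6.11 ± 0.0916. Above the floor were 21.4% of luminal and 43.8% of basal or myoepithelial genes, beside 60.4% of all genes. Above the upper line were 14.3% and 25.0%, beside 45.8%. Among the genes named, Krt14, Itga6, Mylk, Cd24a and Gata3 were above the upper line. Epcam, Grhl2, Krt8, Krt5 and Acta2 were dim, and Cdh1, Krt18, Trp63, Elf5 and Foxa1 were not above the floor.

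Of 13 milk protein genes 8 were not above the floor. Above it were 5 (38.5%, beside 60.4% of all genes), and 2 exceeded the upper line (15.4% beside 45.8%). Csn2, beta-casein, gave 4.19 and 4.09 and Wap, whey acidic protein, 4.88 and 4.61. The genes above the upper line were Mfge8 at 10.90 ± 0.0989 and Xdh at 8.93 ± 0.0844. They encode a milk fat globule protein and xanthine dehydrogenase and are used by many cell types. Csn3, kappa-casein, was dim at 6.49 ± 0.106 with 1 of 2 probe sets above the floor.

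Markers of other cell types were above the upper line in few cases, although not all of these lists were low at the floor. Of all genes, 60.4% were above the floor and 45.8% above the upper line. Of 12 immune cell genes 4 were above the floor and 1, the lysosomal gene Laptm5 (mean 7.15), above the upper line. The leukocyte genes Ptprc and Cd68 had means of 3.77 and 4.90. Of 10 endothelial and 7 adipocyte genes, 2 in each list were above the floor and 0 above the upper line. The endothelial genes Pecam1 and Cdh5 had means of 3.90 and 4.76, and the adipocyte genes Adipoq and Fabp4 of 3.57 and 4.39. Of 14 muscle, neural or liver genes, 7 were above the floor, a larger share than in the epithelial (37.9%), luminal (21.4%), basal (43.8%) and milk protein (38.5%) lists and in the tissue-restricted genes (29.2%), and 1, the muscle filament gene Des, gave 7.13 and 7.06, just over the upper line. Sox10 (6.85) was dim, and Myod1 (4.65) and Alb (4.32) were not above the floor.

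Promoters of a few of these genes are shown because they carry the letters counted in the epithelial and mesenchymal lists. A promoter here is a RefSeq window of 300 bases, 250 before to 50 after the start, in mouse assembly GRCm38.p6, and 11721 of the 18194 genes had exactly 1. The letters CAGGTG, an E-box of the kind that Snail and Zeb proteins bind, or their reverse complement, occurred in 19.8% of all these windows. They were present in 10 of the 13 epithelial windows and 2 of the 12 mesenchymal windows. Divided by signal, the letters were present in all 6 epithelial windows of genes above the floor, each of them dim, and in 4 of the 7 others. The 13 windows cover only part of the 29 measured epithelial genes, and Cdh1 and Esrp1 had no matched window. Whether the letters bear on signal was not tested. TATAAA, the TATA box, occurred on either strand in 10.2% of all windows, in 1 epithelial window and in 5 mesenchymal ones. Below are the 250 bases before the start of Epcam (chr17:87635729-87635978, plus strand), Krt8 (chr15:102004343-102004592, minus strand) and Krt18 (chr15:102027966-102028215, plus strand), with CAGGTG or its reverse complement in capitals, and of Vim (chr2:13574061-13574310, plus strand) and S100a4 (chr3:90603520-90603769, plus strand), with TATAAA in capitals.
Epcam promoter: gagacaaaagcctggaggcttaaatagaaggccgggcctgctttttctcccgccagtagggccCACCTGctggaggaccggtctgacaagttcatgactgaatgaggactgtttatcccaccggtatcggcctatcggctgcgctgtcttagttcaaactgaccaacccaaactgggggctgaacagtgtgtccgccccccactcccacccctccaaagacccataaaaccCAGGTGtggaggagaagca
Krt8 promoter: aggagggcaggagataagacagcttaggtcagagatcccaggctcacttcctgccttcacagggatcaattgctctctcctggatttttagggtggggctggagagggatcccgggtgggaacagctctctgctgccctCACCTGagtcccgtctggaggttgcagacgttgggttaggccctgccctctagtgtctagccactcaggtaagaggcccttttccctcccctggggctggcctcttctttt
Krt18 promoter: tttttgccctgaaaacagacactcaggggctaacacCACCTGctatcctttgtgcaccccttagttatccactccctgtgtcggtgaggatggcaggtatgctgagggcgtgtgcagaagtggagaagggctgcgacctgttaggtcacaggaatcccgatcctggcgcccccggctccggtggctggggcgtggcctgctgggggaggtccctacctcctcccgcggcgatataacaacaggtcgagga
Vim promoter: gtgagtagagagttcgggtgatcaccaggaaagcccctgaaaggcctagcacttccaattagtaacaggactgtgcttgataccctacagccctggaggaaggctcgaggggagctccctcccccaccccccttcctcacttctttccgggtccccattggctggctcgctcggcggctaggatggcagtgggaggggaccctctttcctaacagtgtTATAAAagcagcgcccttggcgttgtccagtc
S100a4 promoter: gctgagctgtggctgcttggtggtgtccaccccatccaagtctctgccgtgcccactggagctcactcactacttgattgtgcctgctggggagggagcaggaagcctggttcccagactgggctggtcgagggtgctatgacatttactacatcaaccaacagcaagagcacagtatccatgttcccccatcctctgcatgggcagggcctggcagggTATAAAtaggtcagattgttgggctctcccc
In Epcam the matches begin 187 and 19 bases before the start, in Krt8 111 and in Krt18 214, and the TATAAA of Vim and S100a4 begins 32 and 31 bases before it. A match describes letters only, and factor binding was not measured.

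Of the nuclear receptors, ligand-regulated transcription factors, 29 of 44 measured genes were above the floor (65.9% beside 60.4% of all genes) and 17 above the upper line (38.6% beside 45.8%), so their share was above that of all genes at the floor and below it at the upper line. Nr3c1, which encodes the glucocorticoid receptor, gave 9.96 and 9.95 on its brightest probe set, and all 6 of its probe sets were above the floor, with means from 5.77 upwards. Esr1, which encodes estrogen receptor alpha, gave 7.05 and 6.92 on 1 probe set and means of 4.09 and 4.85 on the other 2, which were not above the floor. The endogenous receptor messages and the fusion transgenes could both contribute to these probe sets, which was not tested. Pgr, the progesterone receptor gene, gave 4.34 and 4.32 and was not above the floor on any of 3 probe sets. Esr2, estrogen receptor beta, gave 4.67 and 4.40, and Nr3c2, the mineralocorticoid receptor, 4.69 and 4.56. Of the steroid receptors measured here, only Nr3c1 was thus above the upper line on both arrays.

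Other receptors of this family with clear signal were Nr1d2, a clock repressor that binds heme, at 10.30 ± 0.182, the COUP factor Nr2f2 at 9.64 and the orphan receptor Nr2c2 at 9.61. The retinoid X receptors, shared partners of the family, gave 9.25 ± 0.0229 for Rxrb and 8.10 ± 0.0717 for Rxra. The thyroid hormone receptor gene Thra gave 8.05 and the vitamin D receptor gene Vdr 8.02. Some close relatives were not above the floor. Nr1d1, the paralog of Nr1d2, gave 5.08 and 5.16, and Rora, which competes with both for the same sites, was not above the floor on any of 9 probe sets. Nr5a2 and Nr0b2 were at the floor, above it on 1 array each.

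**Figure D2:**
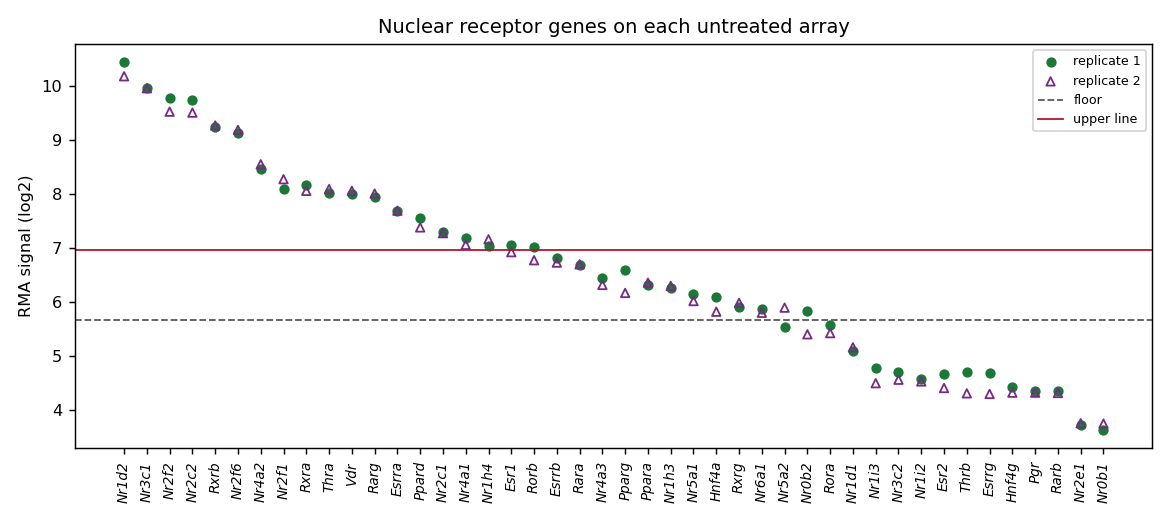
RMA signal (log2, y axis) of the 44 measured nuclear receptor genes on untreated replicate 1 (circles) and replicate 2 (triangles), ordered by their mean, with the floor (dashed) and the upper line (red). Nr3c1 lies near 9.96 on both arrays, Esr1 lies at the upper line, and Nr3c2, Esr2 and Pgr lie under the floor.

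Of 47 receptor tyrosine kinase genes, 28 were above the floor and 16 above the upper line. These shares, 59.6% and 34.0%, did not exceed the 60.4% and 45.8% of all genes. Met, the hepatocyte growth factor receptor, gave 10.99 and 10.98, and Ddr1, a collagen receptor, 11.21 and 11.29 with all 8 probe sets above the floor. Fgfr1 gave 9.51 and 9.57 and Igf1r 8.61 and 8.38. Beside Pdgfrb, the related Pdgfra gave 7.92 and 8.08. Within the EGF receptor family, Erbb2 gave 7.64 and 7.68 and Egfr 7.08 and 7.06, the latter with 3 of 7 probe sets above the floor. Erbb3 was dim at 5.93 ± 0.187, and Erbb4 (3.01) was not above the floor. Kit, the stem cell factor receptor of luminal progenitors, was not above the floor (4.50).

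Receptors for cytokines and the TGF-beta family were above the floor in 31 of 39 cases and above the upper line in 25. These shares were 79.5% and 64.1%, beside 60.4% and 45.8% of all genes. Tgfbr1 and Tgfbr2, the signalling pair for TGF-beta, gave means of 10.25 ± 0.0582 and 11.42 ± 0.103. Tnfrsf12a, the receptor for the cytokine TWEAK, gave 11.97 and 12.19. Il6st, the gp130 chain shared by interleukin 6 family cytokines, gave 9.50 and 9.47, and Osmr, its partner for oncostatin M, 8.60 and 8.54. Lifr, its partner for leukemia inhibitory factor, gave 4.87 and 4.75 and was not above the floor on any of 3 probe sets, and Il6ra (5.61) was at the floor. The interleukin 1 receptor gene Il1r1 gave 9.11 and 8.97.

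The cofactor genes through which steroid receptors work were nearly all present. Of 36 coactivator genes 35 were above the floor (97.2%) and 33 above the upper line (91.7%). Of 27 corepressor genes 24 (88.9%) and 23 (85.2%) were, beside 60.4% and 45.8% of all genes. The p160 coactivator genes Ncoa1, Ncoa2 and Ncoa3 gave means of 9.25, 9.86 and 8.20. The acetyltransferase genes Crebbp and Ep300 gave 10.26 and 9.19, and Med1, the Mediator subunit that contacts nuclear receptors, 10.38. The exception was Nsd1, a histone methyltransferase first found as a receptor partner, whose 4 probe sets all lay under the floor, the brightest at 4.46 and 4.44. Among corepressors, Nrip1 gave 8.61 and 8.63 and Lcor 8.60 on both arrays. Trim28, a silencing scaffold, gave 11.76 and 11.64. Hdac9 (4.69) and the orphan receptor Nr0b1 (3.69) were the corepressor genes not above the floor, and Nr0b2 was at it.

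Of 14 chaperone genes 13 were above both lines (92.9%, beside 60.4% of all genes at the floor and 45.8% at the upper line). Hsp90aa1, the inducible Hsp90, gave 13.17 and 13.23 and the constitutive Hspa8 13.81 and 13.84. The Hsp90 co-chaperone genes Fkbp4 and Fkbp5, which compete for the receptor complex, gave 10.51 and 10.65, and 10.18 and 10.16. Fkbp5 is a textbook glucocorticoid target, and its signal was in the bright band without hormone. Hspa1a gave 3.69 and 3.64 while its near-identical copy Hspa1b gave 8.65 and 8.79, and the assignment of signal to either copy is uncertain.

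Among 28 factors that open or mark chromatin, 19 were above the floor and 14 above the upper line. The share at the floor was 67.9%, beside 60.4% of all genes. At the upper line the share was also only slightly above that of all genes, 45.8%. The AP-1 genes Jund (11.23 ± 0.139), Fosl2 (10.44 ± 0.105), Jun (9.80 ± 0.0545) and Fosl1 (9.21 ± 0.198) were above the upper line on both arrays, and so was Jdp2 (11.01 ± 0.0258), a repressive AP-1 partner. Fos itself, an early response gene, was at the floor with 5.66 and 5.67, and Fosb (4.23) and Atf3 (4.41) were under it. Cebpb gave 11.43 and 11.37, and Tead1, the partner of YAP, 10.33 and 9.96. The forkhead genes Foxa1 (4.34), Foxa2 (4.77) and Foxa3 (4.50) were not above the floor.

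**Figure D3:**
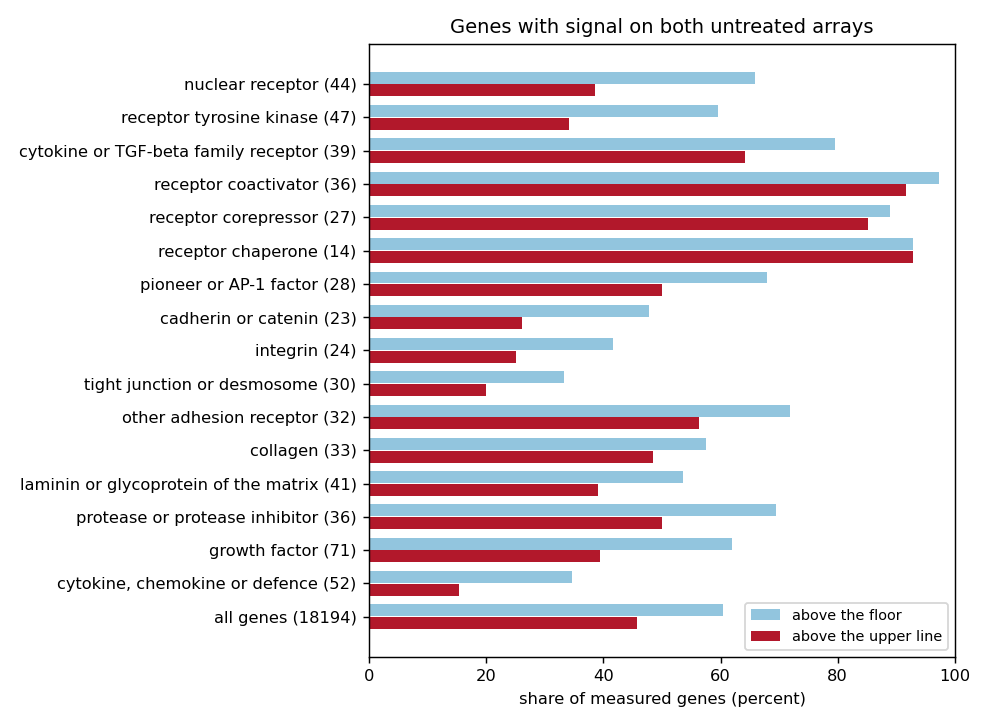
Share of measured genes (percent, x axis) above the floor (blue) and above the upper line (red) on both untreated arrays, for each receptor, cofactor, adhesion and secreted list and for all genes; the number measured is in brackets. Coactivators reach 97.2% and 91.7%, the tight junction or desmosome list 33.3% above the floor, and all genes 60.4% and 45.8%.

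Among the genes that hold cells to each other, 11 of 23 cadherin or catenin genes were above the floor and 6 above the upper line. These shares were 47.8% and 26.1%, beside 60.4% and 45.8% of all genes. The catenin genes Ctnnb1, Ctnna1 and Ctnnd1, which link cadherins to actin, gave means of 12.65, 12.64 and 8.33, so with Cdh2 every subunit of an N-cadherin junction was above the upper line, and Cdh1 was missing from the E-cadherin one. P-cadherin, Cdh3, was dim at 6.59. Of 30 tight junction or desmosome genes 10 were above the floor and 6 above the upper line. The scaffold gene Tjp1 gave 10.75 and 10.60, the tight junction receptor F11r 9.42 and the plakophilin Pkp1 9.33 and 9.30. The membrane and plaque genes Ocln, Cldn1 and Dsp had means of 5.04, 4.18 and 3.99 and were not above the floor on any probe set. Jup, plakoglobin, was dim (6.93 and 6.98).

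Integrins, the receptors for matrix, were above the floor for 10 of 24 genes and above the upper line for 6. These shares, 41.7% and 25.0%, lay under the 60.4% and 45.8% of all genes. Itgav gave 11.52 and 11.42 and its partner Itgb5 10.79 and 10.89. Itgb1, the chain shared by most integrins, gave 10.08 and 10.01 and Itga3, its partner for laminin, 9.44 and 9.16. The fibronectin receptor chain Itga5 was dim at 6.49 ± 0.0127 with 1 of 4 probe sets above the floor, and Itgb3 was dim at 5.96. Itgb4, the hemidesmosome partner of Itga6, gave 5.63 and 5.50 and was not above the floor. Counted as pairs, alpha3 beta1, alpha6 beta1 and alpha-v beta5 had both chains above the upper line.

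Of 32 other adhesion receptors 23 were above the floor and 18 above the upper line (72% and 56%, beside 60.4% and 45.8% of all genes). The tetraspanin Cd151, an integrin partner, gave 12.49 and 12.43, the hyaluronan receptor Cd44 11.24 and 11.26, and the proteoglycan genes Sdc4 and Sdc1 11.03 ± 0.0132 and 10.78 ± 0.0454. Vcam1 gave 7.24 and 7.34. Icam1, the inflammatory ligand of leukocyte integrins, gave 4.20 and 4.24, and Ncam1 was not above the floor on any of 7 probe sets.

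The collagens held a discordant pair. Col1a2, the alpha2 chain of type I collagen, gave 14.01 and 13.92, among the top 5 percent of all genes. Col1a1, whose product fills the other places in the same heterotrimer, gave 5.69 and 5.62 on its brighter probe set, just under the floor on both arrays, and a mean of 4.85 on the other. Col1a1 passed in 1 of 9 alternative settings, that with the array median as the floor, and stayed far from the upper line. Col5a2 gave 12.90 and 12.82 and Col3a1 8.82 and 8.39, the latter on 1 of 2 probe sets. The chains of the main type IV, type V and type VI trimers were all above the upper line, with means of 11.33 for Col4a1, 10.20 for Col4a2, 9.84 for Col5a1, and for Col6a1, Col6a2 and Col6a3 9.30, 9.17 and 11.37. The kidney chains Col4a3 (4.55) and Col4a4 (4.10) were not above the floor. In type VIII, Col8a1 (9.43) was above it and Col8a2 (3.40) was not above the floor. In all, 19 of 33 collagen genes were above the floor and 16 above the upper line (57.6% and 48.5%, beside 60.4% and 45.8% of all genes).

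Of 41 laminin and matrix glycoprotein genes 22 were above the floor and 16 above the upper line. These shares, 53.7% and 39.0%, lay under the 60.4% and 45.8% of all genes. Sparc gave 12.88 and 12.90, fibronectin, Fn1, 12.27 and 12.19, and thrombospondin 1, Thbs1, 11.56 and 11.33. Ccn1, a matricellular YAP target, gave 11.74 and 11.99. The laminin chains Lamb1 (10.79) and Lamc1 (9.08) were above the upper line, and of the 4 alpha chains listed as their partners Lama5 (7.11 ± 0.116) was, while Lama1 (4.71), Lama2 (5.63) and Lama4 (4.25) were not above the floor. Tnc, tenascin C, gave 4.72 and 4.59. Proteases and inhibitors were above the floor for 25 of 36 genes and above the upper line for 18. The matrix crosslinker Lox gave 12.63 and 12.39, the collagen processing enhancer Pcolce 12.69 on average, and the inhibitors Timp2 and Timp1 12.16 and 12.12, and 11.05 and 11.27. Membrane protease Mmp14 gave 9.40 and 9.36. Plau, the urokinase gene, was dim at 6.04 ± 0.0739, and the secreted proteases Mmp3 and Mmp9 were at the floor.

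Growth factor genes were above the floor in 44 of 71 cases and above the upper line in 28. The share was 62.0% beside 60.4% of all genes at the floor, and 39.4% beside 45.8% at the upper line. Igfbp4, an insulin-like growth factor carrier, gave 11.67 and 11.35, Pdgfc 11.47 and 11.43, Pdgfa 10.33 and 10.37 and Vegfa 9.08 and 9.02. The EGF receptor ligands Hbegf (8.50 ± 0.168) and Ereg (8.17) were above the upper line, and the neurotrophic factor Gdnf gave 7.93 and 7.96. Tgfb1 and Wnt5a were dim at 6.38 and 6.12. Hgf gave 4.82 and 4.73 and Fgf2 3.47 and 3.30, neither above the floor. Cytokine, chemokine and defence genes were the sparsest secreted list, with 18 of 52 above the floor (34.6%) and 8 above the upper line. Mif gave 13.05 and 13.15 with 1 of 3 probe sets above the floor, Csf1, the macrophage growth factor, 10.99 and 11.04, and the soluble pattern recognition gene Ptx3 9.41 and 9.42. The chemokine genes Cxcl12 and Cxcl1 gave 8.43 ± 0.145 and 7.49 ± 0.152. Lif was dim at 6.32 ± 0.0764. Il6 (3.19 and 3.15), the siderophore binder Lcn2 (4.14 and 3.94) and Ccl2 (5.64 and 5.54) were not above the floor.

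Set side by side, 45 of 52 listed ligand and receptor pairs had both genes measured. Ligand and receptor were both above the floor in 24 pairs and both above the upper line in 11. Single genes passed these lines in 60.4% and 45.8% of cases. No share over other pairs or complexes of genes was computed, so no excess of pairs or complexes is claimed. Those 11 were Pdgfa with Pdgfra, Vegfa with Nrp1, Igf1 with Igf1r, Hbegf and Ereg with Egfr, Tgfb2 with Tgfbr2, Inhba with Acvr2a, Cxcl12 with Ackr3, Jag1 with Notch1 and with Notch2, and Efna1 with Epha2. In 9 pairs the receptor alone was above the floor, among them Met without Hgf, Fgfr1 without Fgf2, Axl (11.28) without Gas6 (5.19) and Il1r1 without Il1a (3.28). In 8 pairs the ligand alone was, among them Kitl (9.50 and 9.46) without Kit, Lif without Lifr and Cxcl12 without Cxcr4 (3.19). Csf1 was paired with a dim Csf1r, 6.26, that fell under the floor when probe sets shared between transcripts were left out. The pair Gh with Ghr passed the floor through Gh at 6.08, a pituitary gene. Of 33 listed protein complexes 32 had every subunit measured, and 16 had every subunit above the floor.

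**Figure D4:**
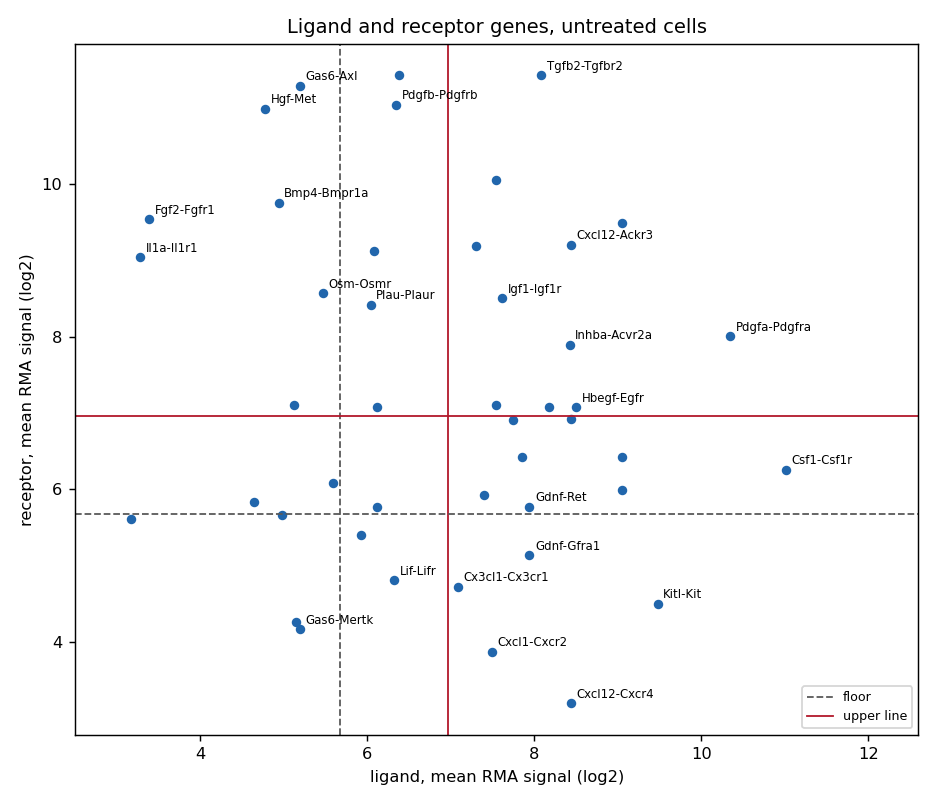
Mean RMA signal (log2) in untreated cells of the ligand (x axis) and the receptor (y axis) for the 45 pairs with both genes measured, 1 point per pair, with the floor (dashed) and the upper line (red) on each axis. Pairs named for Met, Fgfr1 and Axl lie high on the left, Kitl with Kit and Cxcl12 with Cxcr4 low on the right, and the upper right corner holds 11 pairs.

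Genes with signal shared a feature of their promoters that the choice of arrays and lists did not use. CpG content is given as observed over expected, the count of CG dinucleotides relative to that from the C and G content of the window. Its median was 0.354 in the 4420 promoters of genes not above the floor and 0.834 in the 2422 of genes in the bright band below its top 5 percent of all genes. The share of genes above the floor went from 21.3% at a ratio under 0.2 to 84.5% at a ratio over 0.8. Coactivator promoters had a median of 0.851, and tissue-restricted ones 0.254. The 12 mesenchymal promoters, all of genes above the floor, had a median of 0.308, closer to the promoters of genes not above it. An example of the CpG-rich kind is Med14, a Mediator subunit (mean signal 10.12), with GGGCGG or its reverse complement in capitals (chrX:12761974-12762223, minus strand), letters present in 54.5% of all windows and 14 of 19 coactivator windows.
Med14 promoter: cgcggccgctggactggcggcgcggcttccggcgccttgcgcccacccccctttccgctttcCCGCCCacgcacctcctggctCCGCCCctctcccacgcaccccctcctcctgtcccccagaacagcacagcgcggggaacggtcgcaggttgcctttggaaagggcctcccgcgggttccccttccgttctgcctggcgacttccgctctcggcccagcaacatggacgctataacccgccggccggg
The full 300-base window of Med14 has 34 CG dinucleotides, against 2 in that of S100a4.

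**Figure D5:**
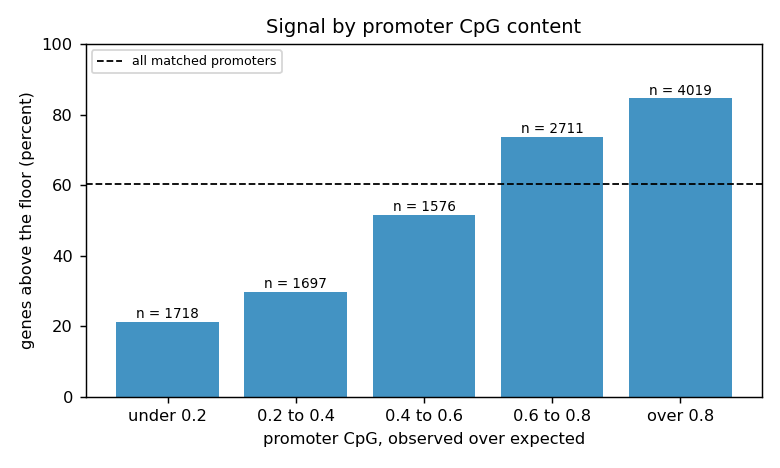
Share of genes above the floor on both untreated arrays (percent, y axis) by the observed over expected CpG ratio of the promoter (x axis), for genes with 1 RefSeq window; n is the number of genes and the dashed line the share over all of them, 60.4%. The bars run from 21.3% to 84.5%.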

How the data were processed

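RNA of untreated 7438 cells was hybridised to an Affymetrix mouse array, and the table used here covers 45101 probe sets. Per the submitters' processing notes, the authors made the deposited log2 values with RMA in Affymetrix Expression Console; no version is given in the sources used here. RMA corrects background, brings arrays to one distribution and summarises each probe set, and it compresses dim signals. Scanner files were not used here, so no other background correction or normalization was tried. The platform annotation gives 34958 probe sets 1 gene symbol and 932 several, and 9211 are not listed; probe sets without exactly 1 symbol were left out, and genes without any other are not analysed here. Of the former, 34754 matched the RefSeq gene table (GRCm38.p6, names only) by gene number.

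Each gene was represented by the probe set that was brightest on average across the 8 arrays, and 49.5% of genes have more than 1. Genes with several probe sets were above the floor in 76.2% of cases, against 44.8% with a single probe set. Levels, lists, pairs and complexes are described by values and counts, with no test, since the arrays form a single group. Members and lists were chosen with earlier results of these data known. The rule for naming covered the defining genes of each list, its 8 brightest, the 3 nearest the floor on each side and those at it. It also covered the members of pairs and complexes, the 20 brightest of all genes and the 6 that differed most between the arrays. Not every gene covered by the rule is named. Other names, such as gene families and promoter examples, were chosen after their values were seen. Python 3.11.15 with pandas 2.3.3 and numpy 2.4.6 was used. The number of arrays limits the precision.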

Additional observations from a re-analysis of the deposited data

How the results depend on the processing

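Over 9 alternatives, 217 of 252 counts (28 results) stayed within 1.5 times the value reported and 35 did not. With the floor at the 99th percentile of the sensory receptor genes, 6.98, or at the 95th percentile of the tissue-restricted genes, 6.96, the counts were the same for each of the following: epithelial 1, basal or myoepithelial 4, milk protein 2, immune cell 1, endothelial 0, adipocyte 0, muscle, neural or liver 1, nuclear receptor 17, receptor tyrosine kinase 16, cadherin or catenin 6, integrin 6, tight junction or desmosome 6, growth factor 28, cytokine, chemokine or defence 8, and ligand and receptor pairs 11. When probe sets of a gene were averaged, the muscle, neural or liver count was 3. Without probe sets whose name marks shared or cross-hybridising probes, which left 16593 genes, it was 4, with epithelial 7, adipocyte 1 and tight junction or desmosome 6. Of 777 list, pair and complex genes, 448 were above the floor and 299 of these under every setting that measured them, while 292 of the 329 others were above it under none. Esr1 was under the floor with the mean of its probe sets and under both stricter floors. Leaving out either array moved no listed gene's level by more than 0.28 and no count by over 1.5 times. No paired analysis was possible because the arrays form 1 group and nothing is compared.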

Other observations

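The following gene families were chosen by name after values were seen. Over all genes 60.4% were above the floor and 45.8% above the upper line. The Hox, Sox, T-box and keratin families each had smaller shares at both lines, although the Sox share at the floor was close to that of all genes. Also counted were Pax, with 4 of 8 genes above the floor and 2 above the upper line, and Gata, with 3 of 6 and 2. Frizzled had 8 of 10 and 5, and Notch 3 of 4 and 2. Of 33 Hox genes, which record position along the body, 13 were above the floor and 9 above the upper line, led by Hoxc9 (8.80) and Hoxb9 (8.59), with Hoxb13 (7.77), Hoxa9 (7.58) and Hoxa10 (7.36) also above it. Of 19 Sox genes 11 were above the floor and 4 above the upper line, Sox4 (10.66), Sox9 (9.18), Sox21 (7.95) and Sox12 (7.89). Of 12 T-box genes 4 were above the floor and 2 above the upper line, Tbx18 (8.47) and Tbx15 (8.27), known from mesenchyme. Of 44 keratin genes 16 were above the floor and 4 above the upper line: Krt14 (8.19), Krt80 (8.14), Krt42 (8.07) and Krt81 (7.28).

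Beside 60.4% of all genes above the floor and 45.8% above the upper line, 9 of 11 annexin genes, which encode calcium-binding membrane proteins, were above the floor and 7 above the upper line, with Anxa2 at 13.47 and Anxa1, a glucocorticoid-regulated gene in many tissues, at 12.92. Of 11 S100 genes 8 were above the floor and 6 above the upper line, with S100a6 at 13.75 and S100a10, the partner of annexin A2, at 12.98. The gene with the highest signal of all was Lgals1, galectin 1 (14.36 ± 0.0317), and the other 19 of the 20 highest were mostly ribosomal protein genes, with Actb (14.09) and Tmsb10 (14.05). Among genes above the floor the arrays differed most for Fam229b (6.33 and 6.96) and Surf2 (6.39 and 6.98), both dim.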
